A study of Rattus norvegicus with 20 samples.

Results

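The small leucine-rich proteoglycans are secreted proteins of the extracellular matrix, and 8 of their genes (Dcn, Lum, Bgn, Fmod, Ogn, Aspn, Prelp and Omd) were followed here across retroperitoneal tissue of ZDF rats, 8 of 14557 genes measured. They were found by gene symbol, with the brightest feature of the array standing for each gene, and all 8 had 1 feature. The members were selected on the measured log2 levels of Lum and Dcn in rosiglitazone rats, which were already known to be low in these same data, so every rosiglitazone value of a member is given below as a description and without a test. Every other comparison of the members was tested. Low is relative to the other groups, so their Lum and Dcn levels also entered the selection. The tests, separations and counts below that include Lum and Dcn are therefore not independent of it.

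RNA came from 20 tissue samples of male ZDF (Zucker diabetic fatty) rats, from a strain whose obese animals become insulin resistant, and was hybridised to Affymetrix Rat Gene 2.1 ST arrays, 1 array for each sample and 5 for each group. The groups were rats labelled rosiglitazone, rats labelled resveratrol, obese rats without a named drug and lean control rats. Rosiglitazone, a thiazolidinedione, activates PPARG, the nuclear receptor that drives fat cell formation, and resveratrol is a polyphenol from plants. Lean controls ate a standard Purina chow and obese rats ate a stock diet for 6 weeks, which means that diet and obesity cannot be told apart. No label gives the doses, the duration of treatment, the diet of the treated rats or whether they were obese. For the tissue the labels say retroperitoneal and no more. Its 8 measured adipocyte markers had mean log2 levels of 10.58 ± 0.12 in rosiglitazone rats, 10.46 ± 0.79 in resveratrol rats, 10.69 ± 0.19 in obese rats and 10.73 ± 0.11 in lean control rats (SD, n = 5 each), against a median gene level of 3.02. The tissue was bulk, so fewer cells of a type and less RNA per cell cannot be told apart.

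A small leucine-rich proteoglycan has a core protein folded into a curved stack of leucine-rich repeats, and most members carry chains of chondroitin, dermatan or keratan sulfate. The curved face binds collagen, and members control how thick collagen fibrils grow and how evenly they are spaced. Several also hold growth factors such as TGF-beta or act on cell-surface receptors. In fat depots they are made mainly by fibroblasts and stromal progenitor cells, whose matrix must be remodelled as adipocytes enlarge. By structure the 8 genes fall into class I (Dcn, Bgn, Aspn), class II (Lum, Fmod, Prelp, Omd) and class III (Ogn). Several lie side by side in the rat genome: in the RefSeq annotation of assembly GRCr8, Dcn and Lum are next to each other, Ogn, Omd and Aspn follow one another, and Prelp is next to Fmod, while Bgn has no neighbour from the family.

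RefSeq promoters, 250 bases before and 50 after the start of the gene in GRCr8, were at hand for 5 of the 8 members, and 3 are printed because they show a member that was lower in rosiglitazone than in obese rats (Lum) beside a neighbouring pair that was not (Aspn and Omd). Capitals mark matches to the motifs searched.
Lum (chr7:34245456-34245755, plus strand): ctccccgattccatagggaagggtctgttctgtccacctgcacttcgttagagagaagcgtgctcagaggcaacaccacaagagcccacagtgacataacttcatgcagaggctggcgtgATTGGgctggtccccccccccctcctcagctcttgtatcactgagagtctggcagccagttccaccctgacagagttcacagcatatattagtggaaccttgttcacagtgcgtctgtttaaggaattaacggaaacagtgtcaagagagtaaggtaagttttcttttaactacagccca
Aspn (chr17:15310420-15310719, minus strand): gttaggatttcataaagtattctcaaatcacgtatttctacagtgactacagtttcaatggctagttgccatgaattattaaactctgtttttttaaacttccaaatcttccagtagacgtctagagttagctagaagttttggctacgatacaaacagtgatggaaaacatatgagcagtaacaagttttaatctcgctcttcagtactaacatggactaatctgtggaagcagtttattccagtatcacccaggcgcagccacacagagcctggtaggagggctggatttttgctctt
Omd (chr17:15274821-15275120, minus strand): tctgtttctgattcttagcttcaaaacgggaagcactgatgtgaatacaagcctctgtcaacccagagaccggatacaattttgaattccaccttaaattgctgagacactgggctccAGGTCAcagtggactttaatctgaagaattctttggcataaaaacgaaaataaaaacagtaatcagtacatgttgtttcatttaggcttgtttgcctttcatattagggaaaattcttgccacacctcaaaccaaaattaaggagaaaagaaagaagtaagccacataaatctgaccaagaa
Both strands were searched. AGGTCA, the hexamer read by PPARG and many other nuclear receptors, matched 1 time in the Omd promoter, starting at position -132 from the start site, and 16.2% of 33469 promoters held it. The direct repeat of AGGTCA, 2 copies on 1 strand with any 1 base between them, which PPARG binds together with RXR, matched in none of the 5 member promoters and in 18 of the 33469. CCAAT matched in the Lum promoter at position -130, on the opposite strand, and in the Fmod promoter at position -247 (37.5% of all promoters held it). TATAAA matched 2 times in the Ogn promoter (14.2% of all). TGANTCA, the AP-1 site (7.33% of all), and CAGACA, a SMAD site (21.1% of all), matched in none of the 5. The Aspn promoter held none of these motifs.

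All levels below are log2 values made by the authors with RMA, and each array is named by its group and replicate number. In them, 3 arrays stood apart by cell type markers. Resveratrol array 1 had a mean level of 8.16 over 8 skeletal muscle markers, against 2.27 to 2.60 on the other resveratrol arrays, and 8.70 over 6 milk protein markers, against 1.36 to 2.42, and its adipocyte markers were lower at 9.05, against 10.75 to 10.85. On resveratrol array 1 the fibroblast and stromal progenitor markers were the highest of the group (7.78, against 7.09 to 7.53). Obese array 2 had 7.17 over 6 urothelium markers, against 2.32 to 2.76 on the other obese arrays. It was also the lowest of its group for fibroblast and stromal progenitor markers (6.18, against 6.70 to 7.28) and macrophage markers (5.31, against 6.39 to 6.87). Rosiglitazone array 2 had 5.65 over 10 fibroblast and stromal progenitor markers, against 6.76 to 7.21 on the other rosiglitazone arrays, and 4.68 over 8 macrophage markers, against 5.38 to 6.31. Rosiglitazone array 2 was the lowest of its group for all 8 members. The mean level of the members was 6.47 on obese array 2, against 6.80 to 7.57 on the other obese arrays. On resveratrol array 1 it was 7.59, within the 7.44 to 7.93 of the other resveratrol arrays.

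With rosiglitazone the members did not share 1 direction. Lum and Dcn had lower mean levels than in each of the other groups, Aspn and Bgn had higher ones, and Ogn, Prelp, Omd and Fmod differed from every other group by at most 0.50 log2. Against obese rats 3 of 8 members had a negative difference, beside 48.5% of all genes, and the median difference of the members was 0.08, beside 0.01 for all genes. That count changed with the scaling, to 5 of 8 after quantile normalization was applied again, since Prelp and Omd lay close to 0. The rule used these contrasts, and nothing is read from the counts.

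**Figure D1:**
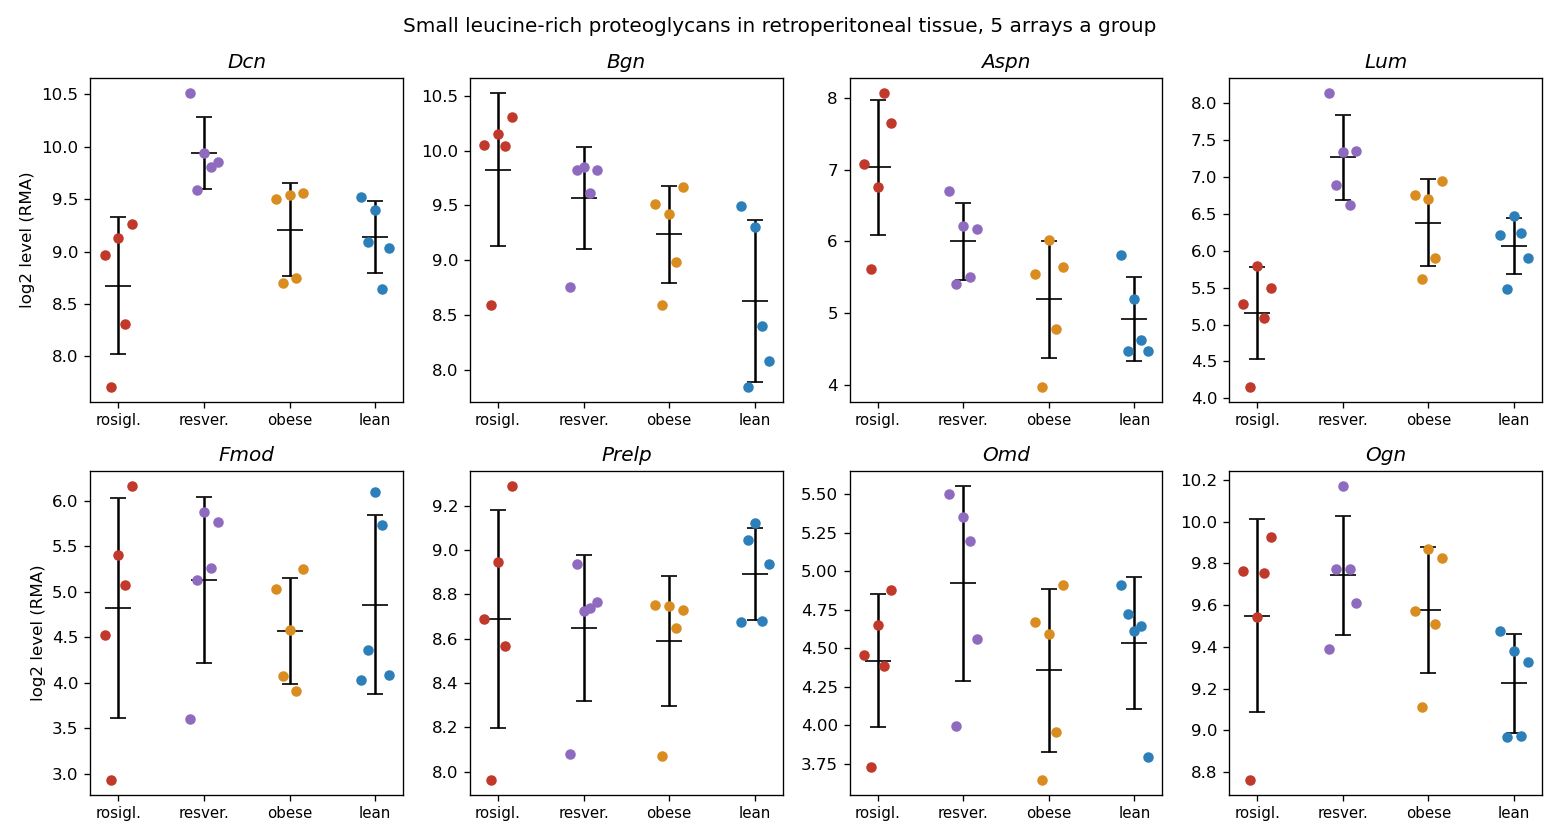
Log2 level (RMA) of the 8 small leucine-rich proteoglycan genes on each array, by group (rosiglitazone, resveratrol, obese, lean control), 5 arrays a group; the bars are the group mean ± SD, and each gene has its own vertical axis that does not start at 0. Lum and Dcn are lowest with rosiglitazone and highest with resveratrol, whereas Aspn is highest with rosiglitazone.

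Lum encodes lumican, a keratan sulfate proteoglycan that keeps collagen fibrils thin and regularly spaced. Its log2 levels were 5.28, 4.15, 5.79, 5.09 and 5.50 in rosiglitazone rats, 8.14, 6.89, 7.34, 6.62 and 7.35 in resveratrol rats, 6.75, 5.62, 6.70, 5.90 and 6.95 in obese rats, and 6.21, 5.48, 6.47, 6.25 and 5.90 in lean control rats. No rosiglitazone array reached the lowest resveratrol array, and rosiglitazone and obese arrays overlapped only in that obese array 2, at 5.62, lay below rosiglitazone array 3, at 5.79. The group means were 5.16 ± 0.62 with rosiglitazone, 7.27 ± 0.58 with resveratrol, 6.38 ± 0.59 in obese and 6.06 ± 0.38 in lean control rats (SD, n = 5 each). Lum was 2.33-fold lower in rosiglitazone than in obese rats (log2 difference -1.22, SE 0.31), with 5 of 5 arrays below the obese mean. The difference from resveratrol rats was -2.11 (4.31-fold lower) and from lean control rats -0.90. Without the 3 arrays that stood apart, the Lum difference from obese rats was -1.16, and the 4 rosiglitazone arrays (5.09 to 5.79) lay below the 4 obese arrays (5.90 to 6.95). The share of all genes that separated with the 3 arrays left out was not counted.

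Dcn encodes decorin, which carries 1 chondroitin or dermatan sulfate chain, decorates the surface of collagen fibrils and binds TGF-beta. Decorin levels were 8.97, 7.71, 9.13, 8.31 and 9.27 in rosiglitazone rats, 10.51, 9.59, 9.94, 9.81 and 9.85 in resveratrol rats, 9.51, 8.70, 9.54, 8.75 and 9.56 in obese rats, and 9.52, 9.10, 9.40, 8.64 and 9.03 in lean control rats. Rosiglitazone arrays lay below all resveratrol arrays but overlapped with the obese and the lean arrays. The mean of Dcn was 8.68 ± 0.65 with rosiglitazone, 9.94 ± 0.35 with resveratrol, 9.21 ± 0.44 in obese and 9.14 ± 0.34 in lean control rats (SD, n = 5 each). The difference of Dcn from obese rats was -0.53 (SE 0.27, 1.45-fold lower, 4 of 5 arrays below the obese mean), and it was -0.29 without rosiglitazone array 2. From resveratrol rats the Dcn difference was -1.26 (2.40-fold lower), and without the 3 arrays it was -0.88. For Lum and Dcn, 2 of 8 members, the rosiglitazone arrays lay wholly below the resveratrol arrays, which held for 3.16% of all genes.

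Aspn encodes asporin, a class I relative of decorin that binds collagen and TGF-beta and usually lacks a glycosaminoglycan chain. Asporin went the other way, with levels of 7.09, 5.61, 6.76, 8.07 and 7.65 in rosiglitazone rats, 6.71, 5.40, 6.21, 5.51 and 6.17 in resveratrol rats, 5.54, 3.97, 6.02, 4.78 and 5.64 in obese rats, and 5.81, 4.47, 5.19, 4.62 and 4.47 in lean control rats. Apart from rosiglitazone array 2, every rosiglitazone array was above every array of the other groups. With that array the rosiglitazone arrays overlapped with each other group. The share of all genes that separated with it set aside was not counted, so nothing is read from this. Group means of Aspn were 7.04 ± 0.94 with rosiglitazone, 6.00 ± 0.54 with resveratrol, 5.19 ± 0.82 in obese and 4.91 ± 0.58 in lean control rats (SD, n = 5 each). The difference from obese rats, 1.84 (SE 0.41), was 3.59-fold, with 5 of 5 arrays above the obese mean. Aspn differed by 1.04 from resveratrol rats, and by 1.57 without the 3 arrays that stood apart. From lean control rats it differed by 2.12.

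Bgn encodes biglycan, the class I member closest to decorin, which can also signal through Toll-like receptors on macrophages when it is released. Biglycan had levels of 10.05, 8.60, 10.15, 10.04 and 10.30 in rosiglitazone rats, 8.76, 9.82, 9.85, 9.61 and 9.82 in resveratrol rats, 9.52, 8.59, 9.43, 8.98 and 9.66 in obese rats, and 9.49, 7.85, 9.31, 8.40 and 8.08 in lean control rats. Rosiglitazone array 2 was the only rosiglitazone array below 10.04, and no array of the other groups reached 10.04. With that array the groups overlapped. The share of all genes that separated with it set aside was not counted, so nothing is read from this. Bgn averaged 9.83 ± 0.70 with rosiglitazone, 9.57 ± 0.47 with resveratrol, 9.24 ± 0.44 in obese and 8.63 ± 0.74 in lean control rats (SD, n = 5 each). The rosiglitazone difference was 0.59 from obese rats (SE 0.34), 0.26 from resveratrol rats and 1.20 from lean control rats. The Bgn difference from resveratrol rats was 0.05 without resveratrol array 1 and 0.56 without rosiglitazone array 2. Without rosiglitazone array 2 the Bgn difference from obese rats was 0.90, and without all 3 arrays that stood apart it was 0.74.

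The group means of the remaining members lay closer together. Ogn, the class III member osteoglycin or mimecan, averaged 9.55 ± 0.46 with rosiglitazone, 9.74 ± 0.29 with resveratrol, 9.58 ± 0.30 in obese and 9.23 ± 0.24 in lean control rats (SD, n = 5 each). Prelp, a class II protein that anchors basement membranes to connective tissue, averaged 8.69 ± 0.49 with rosiglitazone, 8.65 ± 0.33 with resveratrol, 8.59 ± 0.29 in obese and 8.89 ± 0.21 in lean control rats. Omd, osteomodulin or osteoadherin, known from mineralising tissue, averaged 4.42 ± 0.43 with rosiglitazone, 4.92 ± 0.63 with resveratrol, 4.36 ± 0.53 in obese and 4.54 ± 0.43 in lean control rats. Fmod, the keratan sulfate proteoglycan fibromodulin, which shares a collagen site with lumican, averaged 4.82 ± 1.21 with rosiglitazone, 5.13 ± 0.91 with resveratrol, 4.57 ± 0.58 in obese and 4.86 ± 0.98 in lean control rats. The 5 rosiglitazone arrays of Fmod ran between 2.93 and 6.16, wider than any gap between its groups. The rosiglitazone minus obese differences of these genes were -0.03 for Ogn, 0.10 for Prelp, 0.06 for Omd and 0.25 for Fmod, with SEs of 0.20, 0.21, 0.29 and 0.53. Omd and Aspn are neighbours in the genome, and Aspn differed by 1.84 where Omd differed by 0.06.

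**Figure D2:**
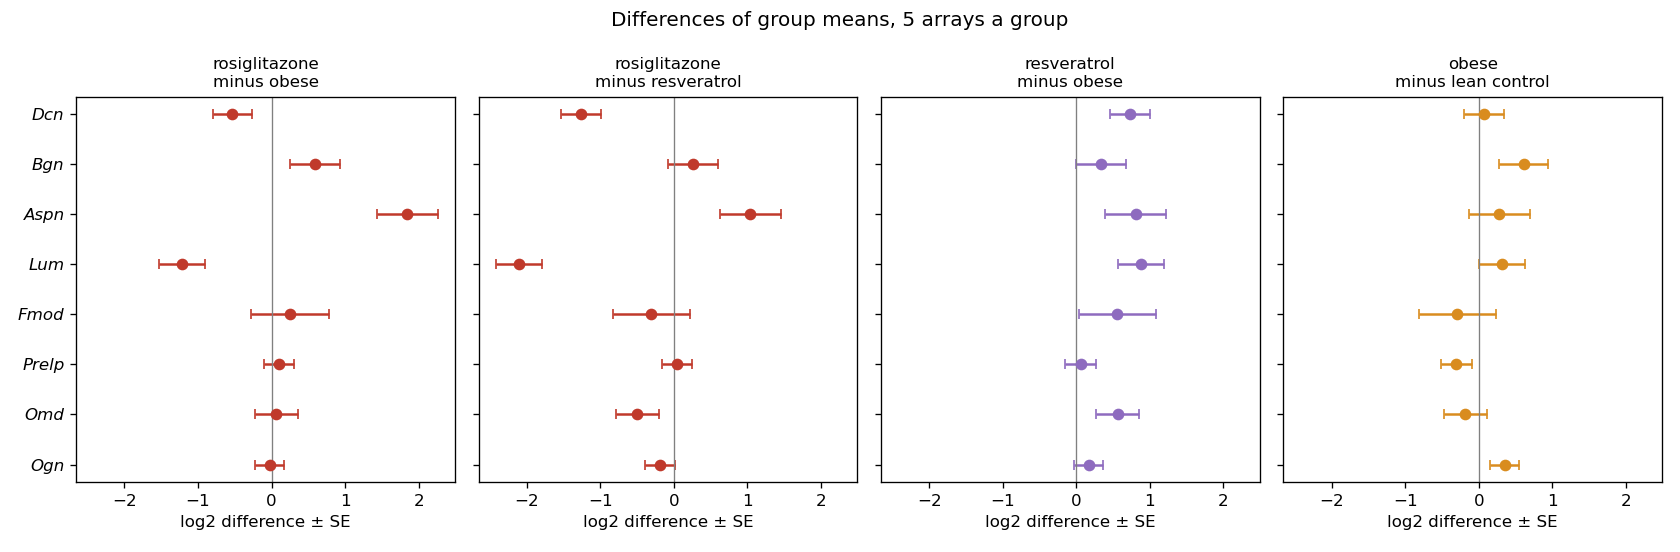
Log2 differences of group means with their SE for the 8 genes in 4 comparisons, 5 arrays a group; the vertical line marks no difference. In rosiglitazone minus obese, Lum (-1.22) and Dcn (-0.53) lie left of the line and Aspn (1.84) and Bgn (0.59) right of it, while all 8 genes lie right of it in resveratrol minus obese.

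In resveratrol rats all 8 members had higher mean levels than in obese rats, but none passed the test. Positive differences made up 52.8% of all genes in this comparison. Lum differed by 0.88 (1.85-fold, 5 of 5 resveratrol arrays above the obese mean), with an adjusted p of 0.427 by limma with Benjamini-Hochberg adjustment over all genes. Dcn differed by 0.73 (1.66-fold, limma adjusted p = 0.448), and all 5 resveratrol arrays, from 9.59 upward, lay above the highest obese array, at 9.56. Such separation with higher resveratrol values held for 0.982% of all genes. The other differences were 0.81 for Aspn, 0.56 for Omd and for Fmod, 0.34 for Bgn, 0.17 for Ogn and 0.06 for Prelp, with limma adjusted p between 0.578 and 0.948. No member of 8, and 0.0% of all genes, passed the adjusted threshold in limma. At an unadjusted p under 0.05, 2 of 8 members (Lum and Dcn) and 8.83% of all genes were counted. Without resveratrol array 1 and obese array 2 the differences were smaller for Lum (0.48), Dcn (0.46), Aspn (0.33), Omd (0.24) and Ogn (0.14), larger for Fmod (0.82) and Bgn (0.38), and 0.07 for Prelp. No member then had an unadjusted p under 0.05, and the share of all genes was not counted in that setting.

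Set against lean control rats, resveratrol rats had higher levels of 7 of 8 members, the exception being Prelp (-0.24), beside 42.7% of all genes, and again none passed (0.124% of all genes did, in limma). Lum differed by 1.21 (SE 0.31, 2.31-fold, limma adjusted p = 0.104) and Dcn by 0.80 (SE 0.27, 1.74-fold, limma adjusted p = 0.180). For both genes all 5 resveratrol arrays lay above all 5 lean arrays, as for 0.907% of all genes. Aspn differed by 1.09 (limma adjusted p = 0.244), Bgn by 0.94 (0.209) and Ogn by 0.52 (0.252). At an unadjusted p under 0.05, 5 of 8 members were counted (Lum, Dcn, Bgn, Aspn and Ogn), beside 13.8% of all genes. Over the alternatives the limma adjusted p of Lum ran from 0.0224 to 0.275. It passed with array weights (0.0272) and with the replicate number as a block (0.0224), and Bgn passed with array weights (0.0217). The number of all genes that passed also changed with the setting, as given at the end, so nothing is read from these calls. Without resveratrol array 1, Lum differed by 0.99 (limma adjusted p = 0.193), Dcn by 0.66 (0.325), Bgn by 1.15 (0.181), Aspn by 0.91 (0.387), Ogn by 0.61 (0.224), Fmod by 0.65 (0.647), Omd by 0.24 (0.799) and Prelp by -0.10 (0.894). Without all 3 arrays that stood apart, the limma adjusted p was 0.0575 for Lum and 0.0510 for Bgn.

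No member passed the test between obese and lean control rats. The difference was 0.61 for Bgn, the member with the lowest limma adjusted p (0.444), 0.35 for Ogn, 0.32 for Lum, 0.28 for Aspn and 0.07 for Dcn, and it was -0.18 for Omd, -0.29 for Fmod and -0.30 for Prelp. None of the 8 passed in limma, where 0.179% of all genes passed, and none had an unadjusted p under 0.05, where 13.5% of all genes did. Without obese array 2 the differences were 0.77 for Bgn, 0.58 for Aspn, 0.51 for Lum, 0.47 for Ogn, 0.20 for Dcn, -0.17 for Fmod and for Prelp and within 0.01 of 0 for Omd. None passed in limma then either (adjusted p between 0.407 and 0.998), but 2 of 8 (Bgn and Ogn) had an unadjusted p under 0.05. The 4 remaining obese arrays of Ogn (9.51 to 9.87) lay above all 5 lean arrays (8.97 to 9.48). Neither share was counted over all genes without obese array 2, so nothing is read from this count or separation. The Dcn levels of all arrays, 8.70 to 9.56 in obese and 8.64 to 9.52 in lean control rats, covered almost the same range. Ordered by mean level, Lum and Dcn ran resveratrol, obese, lean control, rosiglitazone, whereas Aspn and Bgn ran rosiglitazone, resveratrol, obese, lean control. With all arrays, the neighbours obese and lean control overlapped in all 4 genes.

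Across the 20 arrays Lum and Dcn followed each other closely. Their Pearson correlation was 0.91 (Spearman rho 0.87), a description over arrays that share groups and tissue makeup, and Dcn was the second most similar to Lum of 7196 genes ranked. With group means subtracted the correlation was 0.82, and Dcn then ranked 31st. Aspn did not follow Lum over all arrays (r = -0.02), yet within groups the pair ran together (r = 0.75 with group means subtracted, 0.43 without the 3 arrays that stood apart). With group means subtracted all 28 pairs of members had a positive correlation, with a median of 0.60. Without the 3 arrays the median was 0.40 and 27 of 28 were positive, the exception being Aspn and Prelp (r = -0.18). With group means subtracted, members ranked for Lum from 31st (Dcn) to 1569th (Prelp, r = 0.31) of the 7196 genes. Pairs of other genes were not counted, so nothing particular to the members is read from these pairs.

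**Figure D3:**
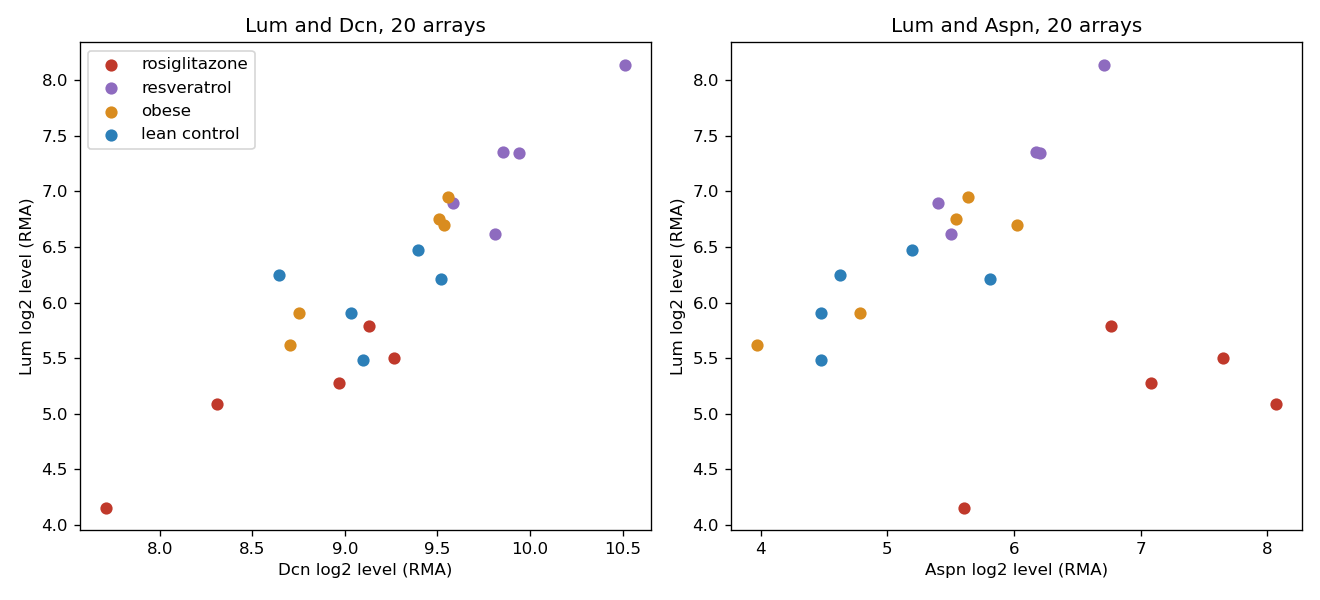
Lum log2 level (RMA) against Dcn (left) and against Aspn (right) on the 20 arrays, coloured by group. Lum and Dcn lie along 1 line through all groups (r = 0.91), whereas the rosiglitazone arrays lie apart from the others in the plot of Lum and Aspn (r = -0.02 over all arrays).

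The 5 genes most similar to Lum by Pearson correlation over the 20 arrays were Tf, the iron carrier transferrin (r = 0.94, rho 0.91), Dcn, Fcrl2 (r = 0.91), Colec12, a scavenger receptor (r = 0.91), and Apobec1, a cytidine deaminase (r = 0.91). For Dcn they were Apobec1 (r = 0.92), Colec12 (r = 0.92), Lum, Mnda (r = 0.91) and Cp, the copper protein ceruloplasmin (r = 0.90). Col14a1, which encodes a collagen found on the surface of fibrils, ranked sixth for Lum (r = 0.90). The first 20 for Lum also held the leukocyte and macrophage genes Adgre1, Ptprc and Siglec1 (r = 0.85 each). With group means subtracted these ranked 396th (r = 0.61), 289th (0.66) and 186th (0.71). The first 20 for Dcn held Mmp2 (r = 0.88) and Pdgfra, a receptor that marks stromal progenitors (r = 0.87), beside Siglec1 and Ncf1 (r = 0.88 each), which macrophages and other leukocytes express. With group means subtracted r was 0.81 for Mmp2, 0.84 for Pdgfra, 0.80 for Siglec1 and 0.86 for Ncf1. Genes past the first 5 were chosen after their values were seen.

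Markers of the cells that make these proteins were set beside the members. The 10 measured fibroblast and stromal progenitor markers, of 14 listed, had mean levels of 6.75 ± 0.64 with rosiglitazone (5.65 to 7.21), 7.41 ± 0.27 with resveratrol (7.09 to 7.78), 6.86 ± 0.44 in obese (6.18 to 7.28) and 6.94 ± 0.20 in lean control rats (6.62 to 7.13) (SD, n = 5 each). None of the 10 had a group mean under the median gene level. Against obese rats none of the 10 passed with rosiglitazone (9.86% of all genes did, in limma), 6 of 10 differences were positive and their median was 0.07. Dpt, the matrix protein dermatopontin, which binds decorin, came nearest, with a difference of -0.75 (SE 0.26, limma adjusted p = 0.0740). Against resveratrol rats all 10 were lower with rosiglitazone, with a median of -0.64, and 3 fell: Cd34 by 1.36 (SE 0.32, limma adjusted p = 0.0128), Clec3b by 1.23 (SE 0.31, 0.0172) and Dpt by 0.93 (SE 0.26, 0.0330). The Dpt call was lost in 8 of 32 alternatives (adjusted p up to 0.0800), and the Clec3b call without the 3 arrays that stood apart (-0.75, limma adjusted p = 0.0797). The background in that comparison was 6.9% of all genes. Against lean control rats 2 of the 10 fell with rosiglitazone in limma (5.19% of all genes passed), 5 of 10 differences were positive and their median was 0.08. The part of this marker shift in the Lum and Dcn differences was not tested.

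**Figure D4:**
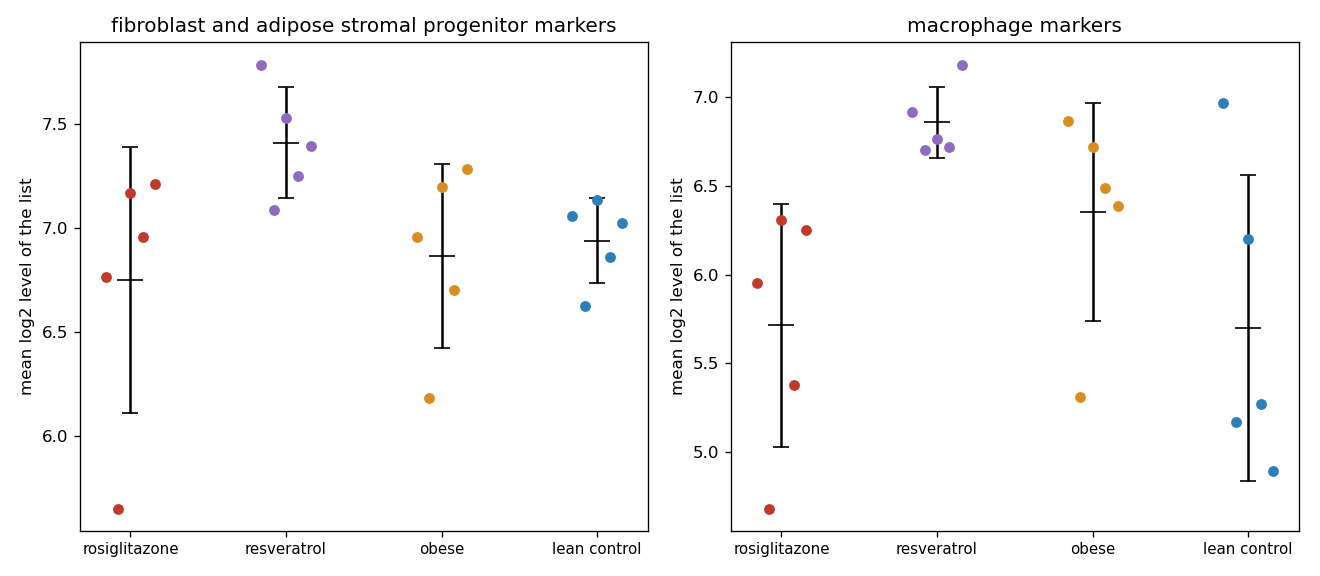
Mean log2 level of the measured fibroblast and stromal progenitor markers (10 genes, left) and macrophage markers (8 genes, right) on each array, by group, with the group mean ± SD (n = 5 each). The resveratrol arrays are high in both lists, with fibroblast markers from 7.09 to 7.78 and macrophage markers from 6.71 to 7.19.

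Markers of other cell types also differed. The 8 measured macrophage markers averaged 5.71 ± 0.69 with rosiglitazone, 6.86 ± 0.20 with resveratrol, 6.35 ± 0.61 in obese and 5.70 ± 0.86 in lean control rats (SD, n = 5 each). Against resveratrol rats all 8 were lower with rosiglitazone and 2 fell, Adgre1 by 1.41 (limma adjusted p = 0.00132) and Cd68 by 1.59 (0.0426), and against obese rats none passed. Of all genes 6.9% passed in limma against resveratrol rats and 9.86% against obese rats. The Cd68 call was lost in 14 of 32 alternatives, with an adjusted p of up to 0.109. The 6 measured endothelium markers averaged 5.47 ± 0.13 with rosiglitazone and 6.08 ± 0.32 in obese rats (SD, n = 5 each). Against obese rats 3 of the 6 fell with rosiglitazone (Cldn5 by 2.06, Cdh5 by 0.96 and Emcn by 0.91, limma adjusted p at most 0.00949) and Vwf rose by 0.79 (0.00900). Beside this count, 9.86% of all genes passed. Against resveratrol rats (6.9% of all genes) and against lean control rats (5.19%), 3 endothelium markers likewise fell and 1 rose. Of 5 measured smooth muscle and pericyte markers, of 9 listed, 1 fell with rosiglitazone against obese rats in limma (9.86% of all genes passed). Against lean control rats 2 fell (5.19% of all genes passed), and against resveratrol rats none passed. The part of these cell types in the members' differences was not tested.

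Genes that work with the family were tested in limma, since the rule did not use them. Their lists were chosen with earlier results of these data known, so nothing is read from how many passed. With rosiglitazone, 7 of 100 measured list genes passed in limma against obese rats (5 higher and 2 lower), beside 9.86% of all genes (7.19% higher and 2.67% lower). Of these 100 genes 12 passed against resveratrol rats, beside 6.9% of all genes, and 10 against lean control rats, beside 5.19%. Among 6 measured relatives of the family, of 11 listed, 1 rose and none fell: Tsku, or tsukushi, a secreted repeat protein, averaged 3.23 with rosiglitazone and 2.27 in obese rats (difference 0.97, SE 0.20, limma adjusted p = 0.00389, 5 of 5 arrays above the obese mean). Kera and Epyc, which lie beside Lum in the genome, were near the bottom of the scale, Kera at 1.31 with rosiglitazone and 1.35 in obese rats, and Epyc at 1.37 with rosiglitazone and 1.60 in obese rats. The median difference of the 6 relatives was 0.04.

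The enzymes that build the sugar chains changed in a few places. Of 19 measured genes of chondroitin and dermatan sulfate synthesis, of 22 listed, 1 rose against obese rats, the chondroitin sulfotransferase Chst3 (0.63, SE 0.18, limma adjusted p = 0.0302), and its call was lost in 8 of the alternatives, the highest adjusted p being 0.0814. Of 11 measured genes of keratan sulfate synthesis, of 13 listed, 1 rose, the sialyltransferase St3gal2 (0.82, SE 0.17, 1.77-fold, limma adjusted p = 0.00399). None of the 7 measured genes of sulfate supply, of 8 listed, passed against obese rats, where the sulfate transporter Slc26a2 differed by -0.74 (limma adjusted p = 0.0594). Slc26a2 fell by 1.19 against resveratrol rats (SE 0.25, 2.28-fold, limma adjusted p = 0.00471).

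No collagen that the family binds passed against obese rats: 0 of 8 measured, of 11 listed, passed in limma, 5 of 8 differences were positive, and their median was 0.17. Col14a1, with the lowest p of them, had an unadjusted p of 0.0200 and differed by -0.81 (SE 0.32, adjusted p = 0.124). Col1a1, the main fibril collagen, averaged 8.49 with rosiglitazone and 8.42 in obese rats, a difference of 0.07 (SE 0.46), and Col3a1 differed by -0.47 (SE 0.39). Against resveratrol rats Col14a1 fell by 1.59 (SE 0.32, 3.02-fold, limma adjusted p = 0.00408), the only collagen of the 8 that passed. Resveratrol array 1 had the highest collagen level of its group (8.31, against 6.86 to 7.50).

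Of 20 measured ligands and receptors of the family, of 24 listed, 1 passed against obese rats: Ccn2, a matrix protein also known as connective tissue growth factor and bound by decorin, rose by 1.57 (SE 0.27, 2.97-fold, limma adjusted p = 0.000731, 5 of 5 arrays above the obese mean). Ccn2 also rose against resveratrol rats (1.19, limma adjusted p = 0.00874). Of 13 measured proteases that process or cleave the family, of 16 listed, 1 fell against obese rats, Tll1, a relative of the protease that trims the precursors of biglycan and osteoglycin. It averaged 2.11 with rosiglitazone and 3.07 in obese rats (-0.95, limma adjusted p = 0.0283), and the call was lost without any 1 of 5 arrays (rosiglitazone 4 and 5, obese 3, 4 and 5). Against resveratrol rats 3 proteases fell: Tll1 by 1.41 (limma adjusted p = 0.00270), the gelatinase Mmp2 by 1.18 (2.26-fold, 0.00812) and the serine protease Htra1 by 0.98 (0.0442). The Htra1 call was lost in 19 of 32 alternatives.

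Of 16 measured genes in a list of large and other matrix proteoglycans, of 24 listed, 1 rose and 1 fell against obese rats. Prg4, which encodes lubricin, a lubricating proteoglycan of joint and serous surfaces, averaged 7.83 with rosiglitazone and 4.81 in obese rats, a rise of 3.01 (SE 0.38, 8.07-fold, limma adjusted p = 4.6e-05). Bcam, a laminin-binding adhesion molecule in that list that is not itself a proteoglycan, fell by 1.29 (SE 0.19, 2.44-fold, limma adjusted p = 0.00021). None of the genes in these lists passed in limma in resveratrol minus obese, resveratrol minus lean control or obese minus lean control. The glypican Gpc4 came nearest, at -0.68 in obese minus lean control (SE 0.15, limma adjusted p = 0.0556).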

How the data were processed

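The deposited table holds log2 values that the authors made with RMA (background correction, quantile normalization and probe summary), per the submitters' processing notes, with no version or build given in the sources used here. RMA forces the arrays to a common distribution, and a difference is relative to it. Of 36685 features, 14824 had 1 gene symbol, 829 had several and 21032 were not listed in the platform's gene table; the brightest feature stood for each of 14557 genes. Array medians ran from 2.46 to 2.63, and precision is limited by how many arrays a group has (median SE of a difference 0.17).

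Group means over the 20 arrays were fitted and compared in limma (version 3.58.1, R 4.3.3) by lmFit and eBayes, two-sided; degrees of freedom were 16 residual and 5.41 prior. Within each comparison p-values were adjusted by Benjamini-Hochberg across the 14557 genes, with 0.05 as the threshold. No fold is given where a group mean was under the median gene level of 3.02. The labels call arrays biological replicates, and nothing else says that they came from separate rats.

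The members, the 8 gene lists around them and the marker lists were chosen with earlier results of these data known. From each list, up to 4 genes past the threshold with the smallest adjusted p were named, or up to 2 by p where none passed; Col1a1, Col3a1, Kera, Epyc, Pdgfra and the marker genes are named outside that rule. Correlations between genes are descriptions. The fit was tested on simulated data with 200 changed genes: in rosiglitazone minus obese it recovered 78.1% of genes changed by 1 log2 unit and 27.7% of those changed by 0.5, over 14557 genes. The changed genes were drawn at random, with normal noise and no arrays that stood apart. Members had SEs of 0.20 to 0.53, above the median SE of 0.17, so these shares do not hold for them. The alternatives were normalizing again, centring, filtering dim genes, other uses of features, a 1.5-fold minimum, other spread models, array weights, a fit of only the compared groups, a block for the replicate number, and leaving out arrays.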

Additional observations from a re-analysis of the deposited data

Results flagged for a closer look

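In 5 of 32 groups of 5 arrays, 1 array lay far from the other 4 by Dixon's test at 95%, which chance alone does in about 1 in 20 groups. Rosiglitazone array 2 had a Bgn level of 8.60, where the other 4 rosiglitazone arrays had 10.04 to 10.30. On resveratrol array 1 Bgn was 8.76, against 9.61 to 9.85, and Prelp was 8.08, against 8.72 to 8.93. Prelp on obese array 2 was 8.07, against 8.65 to 8.75. Omd on lean control array 5 was 3.80, against 4.61 to 4.91. Of these 5 values, 4 were on the arrays whose cell type markers stood apart.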

How the results depend on the processing

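Each member difference was recomputed under 32 alternatives. The members were not tested in the comparisons with rosiglitazone. In the other comparisons none of the 8 passed in the main fit, so there was no call to lose or reverse. The Lum difference in rosiglitazone minus obese ran between -1.41 and -0.97. In that comparison 4 of 8 members took both signs: Fmod ran from -0.09 to 0.72, Ogn from -0.17 to 0.17, Prelp from -0.07 to 0.28 and Omd from -0.11 to 0.24. Both signs also occurred for 3 members in rosiglitazone minus resveratrol, for 2 in rosiglitazone minus lean control, for 2 in obese minus lean control and for 1 in resveratrol minus obese. The number of members with a negative difference, 3 of 8 in rosiglitazone minus obese, was 5 after quantile normalization again and 5 without resveratrol array 1 and obese array 2, and ran from 2 to 6 when single arrays were left out (6 without rosiglitazone array 5). In rosiglitazone minus resveratrol it was 5 and ran from 3 to 6 (3 without rosiglitazone array 2). In rosiglitazone minus lean control it was 5, was 3 with array weights and 3 without the 3 arrays that stood apart, and ran from 3 to 5. In resveratrol minus lean control 0 members passed, 2 with array weights and 1 with the replicate number as a block; the cause was not tested. Over all genes, deviations of same-numbered arrays correlated between -0.207 and 0.356 (5 of 30 pairs over 0.1). Among the members, Aspn was lowest on array 2 in the rosiglitazone (5.61), resveratrol (5.40), obese (3.97) and lean control (4.47) groups. In the lean control group array 5 was almost level with it, also at 4.47. Prelp, in contrast, was highest on array 2 of the resveratrol group (8.93). Whether the replicate number marks something shared by the members was not tested. The block moved no other count of members called. In resveratrol minus obese it raised the members at an unadjusted limma p under 0.05 from 2 to 4.

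Over all genes, 26 passed in obese minus lean control (0 to 65 over the alternatives), 0 in resveratrol minus obese (0 to 3) and 18 in resveratrol minus lean control (0 to 398; 0 without resveratrol array 1). In rosiglitazone minus obese 1436 passed (1007 to 2154), of which 72.9% were higher, or 52.5% after quantile normalization again.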
